A study of Mus musculus with 4 samples.

Results

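A set of cartilage genes, 9 of the 32285 genes measured, were described in the mesenchymal cells of mouse fracture callus. They are the transcription factors *Sox9*, *Sox5*, *Sox6* and *Trps1*, the matrix genes *Acan*, *Hapln1*, *Comp* and *Matn3*, and *Cnmd*, which encodes the membrane glycoprotein chondromodulin. Of the encoded matrix proteins only aggrecan (*Acan*) is a proteoglycan. The genes were taken by name and chosen with earlier results of these data known. A cell was counted as mesenchymal when it held at least 20 *Col1a1* UMIs or at least 10 *Col2a1* UMIs and no *Ptprc* UMI. A UMI marks 1 captured RNA molecule and *Ptprc* marks blood cells.

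The data are 4 single-cell RNA-seq libraries, 1 for each condition, from wild-type male C57BL/6J mice with a tibial fracture at 3 months of age. RA mice carried an inflammatory arthritis brought on by injected serum of K/BxN mice, so the autoantibodies came from donors, and control mice received vehicle. Callus was taken at 4 or 7 days post-fracture (dpf), and the calluses of 4 mice were pooled for each library according to the series description, while the study's methods give another number of mice. With 1 library per condition there was no replicate, and an effect of RA, of the pooled animals and of the library cannot be told apart. No test between conditions was made. The intervals given are 95% intervals that cover counting error only.

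Within the limits of the study (4000 to 50000 UMIs, 2000 to 7000 features and at most 8% mitochondrial UMIs) 4110 to 8223 cells per library were kept. Mesenchymal cells numbered 951 in control at 4 dpf, 755 in RA at 4 dpf, 3054 in control at 7 dpf and 4031 in RA at 7 dpf. They made up 17.4%, 18.4%, 39.8% and 49.0% of the kept cells in the same order. Their median depth was 30945, 30359, 24288.5 and 24287 UMIs, so shares of positive cells were taken after each cell had been thinned at random to 10000 UMIs, which left out 27 to 193 shallower cells per library. All 7 mesenchymal markers (*Prrx1*, *Pdgfra*, *Pdgfrb*, *Col3a1*, *Thy1*, *Ly6a* and *Twist1*) were above 10 CPM (UMIs of a gene per 1000000 UMIs of the cells) in these cells of each library. The 6 macrophage markers summed to 44.0 to 86.2 CPM and the 4 endothelial markers to 32.8 to 47.1 CPM. Pairs of libraries shared 10 to 31 cell barcodes, at most 0.424% of the smaller library.

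SOX9 is the transcription factor that starts cartilage formation, and SOX5 and SOX6 act with it to raise cartilage matrix genes. Aggrecan, held to hyaluronan by the link protein encoded by *Hapln1*, gives cartilage its water and stiffness, while the COMP and matrilin-3 proteins tie the collagen fibrils together. TRPS1 is a GATA-type repressor needed for orderly growth plate cartilage, and chondromodulin keeps vessels out of it. In a healing fracture this programme runs in the soft callus before bone replaces it.

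All 9 genes are protein-coding. In GRCm38 (GENCODE M21) the regulators lie at chr11:112782224-112787760 on the plus strand (*Sox9*), and on the minus strand at chr6:143828425-144781977 (*Sox5*), chr7:115470872-116038796 (*Sox6*) and chr15:50654752-50890463 (*Trps1*). The matrix genes, all on the plus strand, lie at chr7:79053483-79115099 (*Acan*), chr13:89539796-89611652 (*Hapln1*), chr8:70373558-70382066 (*Comp*) and chr12:8947929-8972028 (*Matn3*). *Cnmd* lies on the minus strand at chr14:79637690-79662170.

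The promoters of *Acan*, *Hapln1*, *Matn3* and *Cnmd* are shown because these 4 genes had the highest ratios of 7 to 4 dpf in control among the 9, as described below. Each runs from 250 bases before to 50 bases after the RefSeq start (GRCm38.p6), written 5′ to 3′ on the strand of the gene. They cover chr7:79052976-79053275 (*Acan*), chr13:89540386-89540685 (*Hapln1*), chr12:8947679-8947978 (*Matn3*) and chr14:79662134-79662433 (*Cnmd*). Capitals mark a match to ACAAAG or ACAAT on either strand, core letters of the kind that SOX proteins bind.
Acan: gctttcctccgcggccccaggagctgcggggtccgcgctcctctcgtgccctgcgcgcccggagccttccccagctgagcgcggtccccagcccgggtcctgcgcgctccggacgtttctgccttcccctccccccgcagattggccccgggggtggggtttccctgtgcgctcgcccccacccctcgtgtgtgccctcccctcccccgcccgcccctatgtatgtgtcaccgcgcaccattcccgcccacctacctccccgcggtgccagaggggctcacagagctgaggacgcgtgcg
Hapln1: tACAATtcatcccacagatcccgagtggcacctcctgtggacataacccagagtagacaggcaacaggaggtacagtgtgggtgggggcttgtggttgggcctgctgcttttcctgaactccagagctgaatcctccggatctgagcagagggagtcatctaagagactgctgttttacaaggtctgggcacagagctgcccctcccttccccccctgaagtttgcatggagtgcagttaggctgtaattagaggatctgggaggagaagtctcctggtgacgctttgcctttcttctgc
Matn3: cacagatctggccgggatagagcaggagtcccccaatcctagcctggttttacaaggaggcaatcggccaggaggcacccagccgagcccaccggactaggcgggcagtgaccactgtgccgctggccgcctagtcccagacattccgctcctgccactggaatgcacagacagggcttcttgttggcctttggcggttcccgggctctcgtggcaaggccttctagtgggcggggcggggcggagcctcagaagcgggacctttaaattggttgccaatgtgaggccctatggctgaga
Cnmd: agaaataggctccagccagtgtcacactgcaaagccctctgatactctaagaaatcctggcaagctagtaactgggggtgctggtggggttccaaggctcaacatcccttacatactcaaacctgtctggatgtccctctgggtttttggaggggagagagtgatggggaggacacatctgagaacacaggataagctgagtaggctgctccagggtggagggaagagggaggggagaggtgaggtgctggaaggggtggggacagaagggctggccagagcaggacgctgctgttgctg
A single match, ACAAT in *Hapln1*, was present in these 4 windows, at -249 relative to the start. Of all 32851 mouse promoters of the same length, 42.9% held at least 1 match. The 4 windows also differ in base composition, from 54.3% G and C in *Hapln1* to 74.0% in *Acan*. A promoter was at hand for 6 of the 9 genes.

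The first question was how the programme stood at the start, at 4 dpf, before cartilage is laid down in quantity. *Sox9*, *Sox5* and *Trps1* were already measured in many mesenchymal cells and *Sox6* in few, while *Hapln1*, *Matn3* and *Cnmd* stood at no more than 5.80 CPM. *Sox9* stood at 70.3 CPM (67.3 to 73.5) in control and 104.5 CPM (100.3 to 108.8) in RA, and 34.2% and 46.8% of the thinned cells held a *Sox9* UMI. Both shares lay far above those in the macrophages of the same libraries, 0.384% and 0.917%, whose median depth was 17381 and 18085 UMIs. *Sox5* stood the other way round, at 172.9 CPM (168.1 to 177.8) in control and 115.9 CPM (111.4 to 120.4) in RA.

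*Sox6*, the closest relative of *Sox5*, stood at 15.1 CPM in control and 17.9 CPM in RA at 4 dpf and was found in 8.17% and 10.2% of cells. *Trps1* was the most widely detected gene of the 9, in 76.0% and 79.1% of cells, at 257 and 285.5 CPM. Its detection was not particular to mesenchymal cells: at 4 dpf 90.1% of macrophages in control and 88.0% in RA held a *Trps1* UMI, at 432 and 422 CPM. *Trps1* in mesenchymal cells therefore cannot be set against a free-RNA background from macrophages, and 37.0% and 41.99% of endothelial cells held it as well.

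Of the matrix genes, *Comp* was the one with a high level at 4 dpf, 337 CPM (330 to 344) in control and 305.5 CPM (298 to 313) in RA. These UMIs sat in few cells: 49 control cells and 45 RA cells carried 50% of them. A split made after these values were seen showed that 6737 of 9661 control and 2739 of 6848 RA *Comp* UMIs lay in the 200 and 111 cells with at least 3 UMIs of *Tnmd*, the tendon gene tenomodulin. *Comp* is also a tendon matrix gene, and in those cells it stood at 1246 and 1039 CPM, against 126 and 208 CPM in the other mesenchymal cells. The cells with at least 3 *Tnmd* UMIs also held 59.1% and 60.6% of the *Sox6* UMIs and 67.2% and 46.2% of the *Matn3* UMIs. Of the *Sox9* UMIs they held 15.2% and 6.74%.

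*Acan* stood at 33.9 CPM (31.8 to 36.1) in control and 24.3 CPM (22.3 to 26.4) in RA at 4 dpf, in 10.0% and 9.20% of cells. Macrophages of these libraries held it in 0.110% and 0.275% of cells, so the shares in mesenchymal cells lay above that background. *Hapln1* had 43 and 24 UMIs in all, *Matn3* 119 and 130, and *Cnmd* 58 and 46. *Cnmd* was found in 1.96% and 2.20% of mesenchymal cells, above its share in macrophages, 0.329% and 0.183%, and under that in endothelial cells, 4.67% and 4.85%. No mesenchymal cell at 4 dpf reached 10 *Col2a1* UMIs, which allows a share of up to 0.315% in control and 0.397% in RA.

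**Figure D1:**
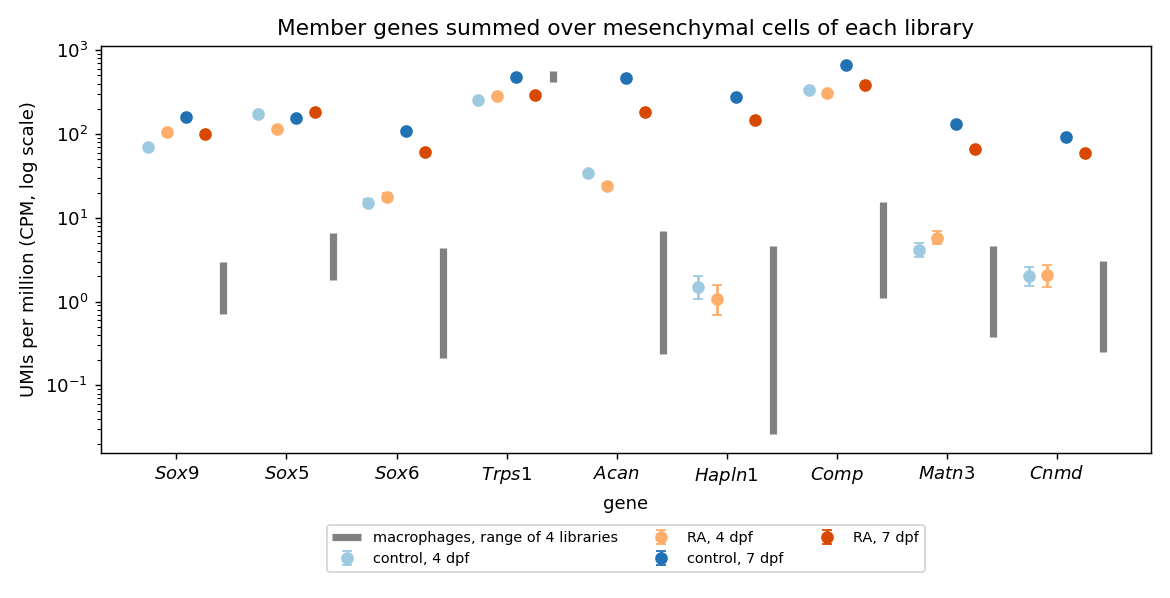
Level of each gene in mesenchymal cells (CPM, log scale) in the 4 libraries, with 95% Poisson intervals, and the range over the macrophages of the 4 libraries as grey bars. *Hapln1*, *Matn3* and *Cnmd* sit between 1.07 and 5.80 CPM at 4 dpf and between 59.5 and 278 CPM at 7 dpf, whereas *Sox5* stays between 116 and 181 CPM throughout.

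From 4 to 7 dpf in control, *Hapln1*, *Cnmd*, *Matn3*, *Acan* and *Sox6* stood higher by more than the other 4 genes. With a pseudocount of 1 CPM, 6 of the 9 genes were at least 2-fold higher at 7 dpf, where 1.73% of 15910 genes were, and none was 2-fold lower, where 1.5% were. At 1.5-fold, 8 were higher (5.22% of all genes) and none lower (4.79%). The median log2 ratio of the 9 was 2.76 against 0.08 over all genes tested. *Hapln1* was 185.5 times as high (137.6 to 256.4), *Cnmd* 46.1 times (35.6 to 60.7), *Matn3* 31.7 times (26.4 to 38.3) and *Acan* 13.8 times (12.9 to 14.7). *Sox6* was 7.16 times as high (6.50 to 7.91), the most of the 4 transcription factors.

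*Sox9*, by contrast, was 2.29 times as high (2.18 to 2.40) in control at 7 dpf as at 4 dpf, and *Comp* 1.99 times (1.95 to 2.04). *Trps1* was 1.85 times as high (1.81 to 1.90). *Sox5* was the exception, at 0.908 times (0.879 to 0.939) its level at 4 dpf. These ratios leave out the cells over 50000 UMIs. With the rule cells over that limit counted as well, an alternative chosen after seeing the data, *Comp* stood at 178 CPM at 4 dpf and 786 CPM at 7 dpf, 4.42 times as high (4.33 to 4.51). *Hapln1* was then 331 times as high, *Cnmd* 69.3 times and *Matn3* 51.7 times, and *Sox5* turned to 1.08 times (1.05 to 1.11). The direction for *Sox5* and the size for *Comp* thus rest on that limit.

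In RA the same step was smaller for 8 of the 9 genes. In RA 5 genes were at least 2-fold higher at 7 dpf than at 4 dpf (1.82% of 16360 genes were), and none was 2-fold lower (1.3%). At 1.5-fold, 6 were higher (5.26%) and none lower (4.33%). *Hapln1* was 137.8 times as high (92.6 to 215), *Cnmd* 29.0 times, *Matn3* 11.5 times, *Acan* 7.48 times (6.87 to 8.16) and *Sox6* 3.40 times (3.07 to 3.77). For *Hapln1* and *Cnmd* the intervals of the control and RA ratios overlapped. *Sox9* stood at 0.958 times its level at 4 dpf (0.916 to 1.00) and *Trps1* at 1.02 times (0.989 to 1.04), both intervals including or touching 1. *Comp* was 1.26 times as high (1.23 to 1.30). *Sox5* was again the exception, 1.56 times as high (1.498 to 1.63). With the cells over 50000 UMIs counted, *Comp* was 2.55 times as high (2.49 to 2.62), *Sox6* 5.24 times (4.81 to 5.71) and *Trps1* 1.11 times (1.09 to 1.14). These comparisons over time use the same 4 libraries as the comparisons of RA with control and are not independent of them.

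At 7 dpf, the question was whether the genes stood lower in the callus of RA mice. Of the 9, 8 did, at 0.388 to 0.638 times the control level. By at least 1.5-fold, 8 of the 9 genes were lower in RA, where 4.23% of 17213 genes were, and none was higher, where 4.96% were. By at least 2-fold only *Acan* was lower, where 0.906% were, and none was higher, where 1.73% were. The median log2 ratio of the 9 was -0.80 against -0.03 over all genes. As the set was chosen with earlier results of these data known, these counts are a description. The 9 are also not separate observations. Most UMIs of *Acan*, *Hapln1*, *Comp*, *Matn3*, *Cnmd* and *Sox6* in control lay in the same cells, those rich in *Col2a1* described below. Markers of other cell types also differed between the mesenchymal cells of these libraries: the 4 osteoblast markers summed to 1031 CPM in control and 338 CPM in RA (5.62 and 59.5 CPM at 4 dpf), and the 4 tendon markers to 870 and 1033 CPM (1321 and 1300 CPM at 4 dpf), with no marker of either list at 0. At 7 dpf 2 of the 4 osteoblast markers in control and 1 in RA reached 10 CPM, so their sums rest on few genes. All 4 tendon markers reached it in each library. The part of these markers in the ratios was not tested.

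*Acan* showed the lowest ratio of the 9. It stood at 467.5 CPM (463 to 472) in control and 181.5 CPM (179 to 184) in RA, a ratio of 0.388 (0.381 to 0.395), and 42 of the 17213 genes, itself included, had a log2 ratio this low or lower. The share of cells with an *Acan* UMI was 37.5% in control and 15.8% in RA, a difference of 21.6 percentage points, against 7.66% and 3.66% in macrophages. Over all positive cells the mean number of *Acan* UMIs was 0.909 times as high in RA, so the share of positive cells differed more than this mean. The mean takes in the cells rich in *Col2a1* described below. Among thinned cells with under 10 *Col2a1* UMIs, 849 positive control cells held 4162 *Acan* UMIs and 476 positive RA cells held 1421. In that class, chosen after the levels were seen, a positive cell thus held fewer *Acan* UMIs in RA.

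The other matrix genes were nearer to each other. *Hapln1* stood at 278 CPM in control and 147.5 CPM in RA, 0.530 times as high (0.519 to 0.541), and was found in 13.0% and 6.83% of cells. *Matn3* stood at 132 and 66.9 CPM, 0.509 times (0.493 to 0.525), in 13.7% and 8.96% of cells. Macrophages held *Hapln1* in 4.02% and 4.78% of cells and *Matn3* in 4.59% and 3.98%, at a median depth of 13167.5 and 13514 UMIs. *Comp* stood at 672 CPM in control and 386 CPM in RA, 0.575 times (0.567 to 0.583). It was found in 44.97% and 37.5% of cells, a ratio of shares of 0.834 (0.774 to 0.900). *Cnmd* stood at 93.2 and 59.5 CPM, 0.638 times (0.617 to 0.661), in 9.92% and 6.67% of mesenchymal cells, beside 7.50% and 7.87% of endothelial cells. The RA share of *Cnmd* thus did not exceed that in endothelial cells, though its level did, at 59.5 against 9.42 CPM.

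Of the regulators, *Sox9* stood at 161 CPM (158 to 164) in control and 100.2 CPM (98.2 to 102.2) in RA at 7 dpf, 0.622 times as high (0.606 to 0.639). It was found in 56.6% (54.8 to 58.5) and 43.9% (42.3 to 45.5) of cells, against 3.25% and 2.87% of macrophages. *Sox6* stood at 108 and 60.8 CPM, 0.562 times (0.543 to 0.581), in 17.6% and 10.4% of cells. *Trps1* stood at 476 and 290 CPM, 0.609 times (0.600 to 0.619), in 87.6% and 73.9% of cells. Macrophages went the other way for *Trps1*, at 433 CPM in control and 564 CPM in RA.

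*Sox5* was the only one of the 9 that was not lower in RA at 7 dpf. It stood at 157 CPM (154 to 160) in control and 181 CPM (178 to 183) in RA, 1.15 times as high (1.13 to 1.18), in 50.6% and 58.9% of cells. Thus *Sox5* and *Sox6*, which encode closely related partners of SOX9, stood in opposite directions between the libraries at this time.

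At 4 dpf the ratios of RA to control were smaller in size and mixed in direction. None of the 9 was 2-fold higher (0.699% of 14154 genes were) or lower (0.862%), and none was even 1.5-fold higher (3.82%) or lower (2.8%) with the pseudocount. *Sox9* was 1.49 times as high in RA (1.40 to 1.58), *Matn3* 1.40 times (1.08 to 1.81), *Sox6* 1.18 times (1.03 to 1.36) and *Trps1* 1.11 times (1.08 to 1.15). *Sox5* was at 0.670 times (0.639 to 0.703), *Acan* at 0.716 times (0.643 to 0.796) and *Comp* at 0.906 times (0.879 to 0.935). The intervals of *Hapln1* (0.414 to 1.20) and *Cnmd* (0.673 to 1.52) included 1.

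**Figure D2:**
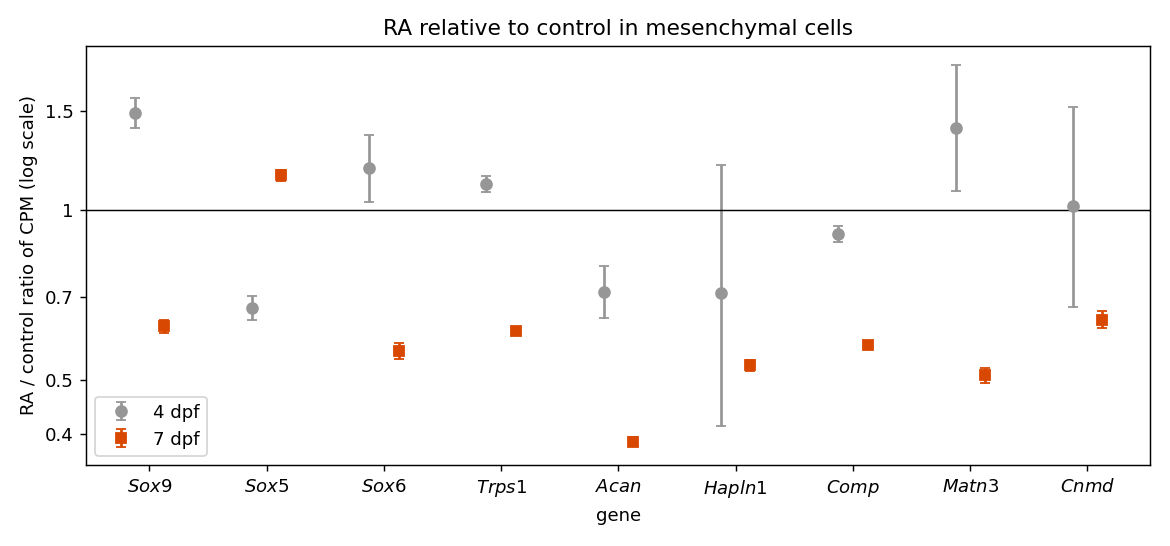
Ratio of RA to control in mesenchymal cells (log scale) for each gene at 4 dpf (grey circles) and 7 dpf (orange squares), with 95% intervals for counting error. At 7 dpf 8 genes lie between 0.388 and 0.638 and *Sox5* at 1.15, while at 4 dpf the ratios run from 0.670 to 1.49.

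Cells rich in *Col2a1*, the type II collagen gene of cartilage, were more frequent in control at 7 dpf, and as *Col2a1* is part of the rule for mesenchymal cells that is given as a description. At least 10 *Col2a1* UMIs were held by 258 control cells, 8.45% (7.49 to 9.49) of mesenchymal cells, and by 152 RA cells, 3.77% (3.20 to 4.41). Only 4 and 10 cells entered through *Col2a1* alone. Whether a gene of the set was lower within cells of like *Col2a1* level was then asked, in a split made after the levels had been seen.

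The 9 genes were distributed unequally over this split. In control, 96.8% of the *Hapln1*, 95.2% of the *Cnmd* and 92.8% of the *Matn3* UMIs lay in the *Col2a1*-rich cells, as did 74.0% of *Comp*, 72.5% of *Sox6* and 69.8% of *Acan*. The same cells held 34.0% of the *Sox9*, 22.7% of the *Trps1* and 19.4% of the *Sox5* UMIs. In RA the middle 3 stood in the reverse order, *Acan* at 78.3%, *Sox6* at 64.7% and *Comp* at 55.7%.

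Within the *Col2a1*-rich cells the 2 libraries were close for most genes. *Acan* stood at 3303 CPM in control and 3211 CPM in RA, 0.972 times (0.952 to 0.993), and *Comp* at 0.966 times (0.9499 to 0.982). *Hapln1* was 1.19 times as high in RA (1.17 to 1.22), *Matn3* 1.09 times (1.05 to 1.12), *Sox6* 1.12 times (1.07 to 1.16) and *Cnmd* 1.38 times (1.33 to 1.43). *Sox9* was at 0.852 times (0.808 to 0.899) and *Trps1* at 0.887 times (0.855 to 0.920), while *Sox5* was 1.30 times as high (1.22 to 1.39). For *Hapln1*, *Matn3*, *Sox6* and *Cnmd* the direction in these cells together was opposite to that over all mesenchymal cells. Within them it differed by class. In cells with 10 to 99 *Col2a1* UMIs, 89 in control and 51 in RA, *Sox6* was lower in RA, at 0.808 times (0.743 to 0.877), as was *Acan*, at 0.812 times (0.765 to 0.862). *Hapln1* stood at 1.00 times (0.908 to 1.10), *Matn3* at 1.07 times (0.946 to 1.21) and *Cnmd* at 1.17 times (1.01 to 1.37) there. In cells with 100 or more, 169 and 101, *Sox6* was 1.25 times as high in RA (1.19 to 1.31), *Hapln1* 1.22 times, *Matn3* 1.11 times and *Cnmd* 1.41 times, and *Acan* stood at 1.01 times (0.987 to 1.03).

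In the remaining 2796 control and 3879 RA cells, with under 10 *Col2a1* UMIs, *Acan* differed the most. It stood at 156.7 CPM in control and 41.3 CPM in RA, 0.264 times as high (0.254 to 0.273), and 40.2% against 18.6% of the unthinned cells held it. The levels of both groups exceeded those in macrophages, 6.88 and 3.90 CPM. In cells without any *Col2a1* UMI the ratio was 0.238 (0.225 to 0.252). *Sox9* was at 0.703 times (0.682 to 0.725), 118 against 83.0 CPM, *Trps1* at 0.633 times (0.623 to 0.644), 408 against 259 CPM, and *Sox6* at 0.681 times (0.642 to 0.723). *Comp* was at 0.925 times (0.904 to 0.946), and *Sox5* was 1.21 times as high in RA (1.18 to 1.25).

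*Hapln1* in these cells stood at 9.76 CPM in control and 3.94 CPM in RA, beside 4.34 and 4.64 CPM in macrophages, and *Cnmd* at 5.02 and 5.01 CPM, beside 3.09 and 2.14 CPM in macrophages and 7.94 and 9.42 CPM in endothelial cells. *Hapln1* in RA did not exceed its level in macrophages, while *Cnmd* in both libraries lay above macrophages and below endothelial cells. *Matn3* stood at 10.5 and 7.77 CPM, beside 4.59 and 4.09 CPM in macrophages.

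When the RA cells were weighted to the *Col2a1* classes of control, the ratios over all mesenchymal cells formed 3 sets. *Trps1* (0.693), *Sox9* (0.755) and *Acan* (0.766) remained lower in RA. *Comp* (0.965) and *Sox6* (1.00) came close to 1. *Matn3* (1.08), *Hapln1* (1.18), *Sox5* (1.23) and *Cnmd* (1.38) stood above 1. These weighted ratios sum classes that were not alike. *Sox6* was lower in RA under 100 *Col2a1* UMIs and higher above. *Hapln1* was at 0.456 times without a *Col2a1* UMI and 0.364 times with 1 to 9, against 1.22 times with 100 or more. *Matn3* stood at 0.623, 0.852 and 1.11 times in the same order. *Acan* stood at 0.238, 0.289 and 1.01 times.

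**Figure D3:**
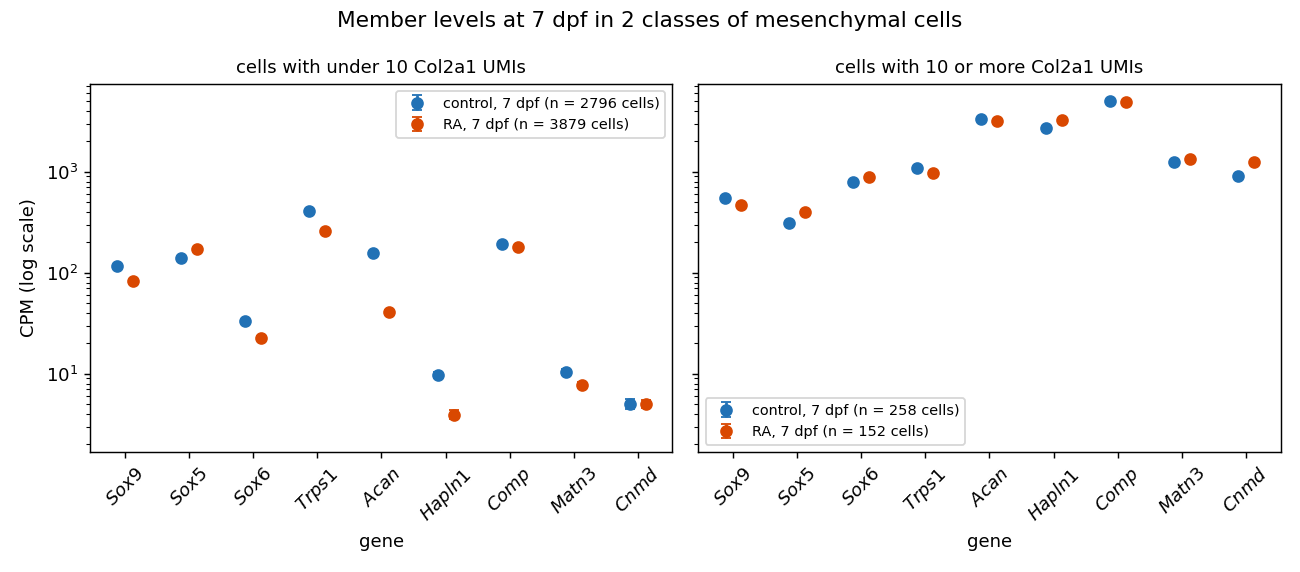
Levels at 7 dpf (CPM, log scale, 95% Poisson intervals) in mesenchymal cells with under 10 *Col2a1* UMIs (left) and with 10 or more (right). Control and RA nearly coincide for *Acan* and *Comp* on the right, while on the left *Acan* stands at 156.7 CPM in control and 41.3 CPM in RA.

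*Acan* outside the *Col2a1*-rich cells was then followed through classes of the thinned cells, also chosen after the levels were seen. Among cells with a *Tnmd* UMI, 54.6% in control and 27.3% in RA held *Acan*, and among cells without one, 24.3% and 9.38%. Among cells with a *Sox9* UMI the shares were 37.8% and 17.02%, and among cells without one 25.02% and 9.83%. The share in RA was the lower one in each of these 4 classes.

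Levels in thinned cells with and without a *Sox9* UMI were compared to see whether the matrix genes went with *Sox9* itself. At 7 dpf *Sox9*-positive cells held more *Acan* than *Sox9*-negative cells, 621 against 116 CPM in control and 308 against 34.4 CPM in RA, ratios of 5.38 and 8.95. *Hapln1* was 18.7 and 31.1 times as high in them, *Cnmd* 18.8 and 9.39 times and *Matn3* 11.9 and 9.50 times. *Sox6* was 6.99 and 2.76 times as high, *Comp* 3.30 and 2.35 times and *Trps1* 1.67 and 1.62 times. In RA, however, *Sox6* was found in 11.4% of *Sox9*-positive and 9.66% of *Sox9*-negative cells. With the *Col2a1*-rich cells left out, *Comp* stood at 202 CPM in *Sox9*-positive and 201 CPM in *Sox9*-negative cells of control. In RA it stood at 209 and 187 CPM. *Acan* stood at 213 and 90.7 CPM there in control and at 59.6 and 22.9 CPM in RA. *Sox5* was not higher in *Sox9*-positive cells, at 0.905 and 0.808 times.

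At 4 dpf the same split gave another picture. *Acan* was again higher in *Sox9*-positive cells, 2.15 times in control and 6.22 times in RA. *Sox6* was lower there, at 0.607 and 0.229 times, and so was *Comp*, at 0.715 and 0.534 times. *Tnmd* stood at 0.456 and 0.124 times in the same cells. By presence alone *Comp* differed little from the product of the shares, being found with *Sox9* 1.07 times as often in control and 0.943 times in RA.

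Comparing only *Sox9*-positive cells, 1650 in control and 1685 in RA at 7 dpf, RA stood lower for 7 of the 8 other genes. *Acan* was at 0.495 times the control level (0.479 to 0.512), *Sox6* at 0.580, *Trps1* at 0.649, *Comp* at 0.649, *Matn3* at 0.660, *Hapln1* at 0.699 and *Cnmd* at 0.807 times. *Sox5* was 1.09 times as high (1.03 to 1.15). Of these cells 1425 in control and 1569 in RA held under 10 *Col2a1* UMIs, so *Col2a1*-rich cells were a larger part of them in control. In these cells with under 10 *Col2a1* UMIs, *Acan* stood at 213 CPM in control and 59.6 CPM in RA and *Trps1* at 485 and 321 CPM. *Comp* stood there at 202 and 209 CPM and was thus not lower in RA. The part of this mix in the ratios was not tested. In *Sox9*-negative cells *Acan* was at 0.298 times (0.272 to 0.325), *Hapln1* at 0.420, *Trps1* at 0.668 and *Comp* at 0.909 times. *Cnmd* was 1.61 times as high there (1.25 to 2.10), at 6.73 CPM in control and 10.9 CPM in RA, *Sox6* 1.47 times (1.28 to 1.69) and *Sox5* 1.22 times. Of the 1263 control and 2153 RA *Sox9*-negative cells, 1243 and 2126 held under 10 *Col2a1* UMIs. The others were *Col2a1*-rich, and their part in these ratios was not tested either. The interval of *Matn3* (0.685 to 1.01) included 1. The lower *Acan* in RA was therefore present in cells with and without a *Sox9* UMI.

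By number of *Sox9* UMIs per thinned cell, *Acan* in control at 7 dpf stood at 116 CPM with none, 243 CPM with 1, 492 CPM with 2 to 3 and 1604 CPM with 4 or more. In RA the same classes held 34.4, 101.7, 191.5 and 1300 CPM. The class with the most *Sox9* made up 11.9% of cells in control and 6.44% in RA. *Trps1* was lower in RA in each class, at 344, 433, 564 and 874 CPM in control and 230, 309, 359 and 630 CPM in RA. At 4 dpf *Acan* with 4 or more *Sox9* UMIs stood at 78.1 CPM in control and 72.1 CPM in RA, far below either library at 7 dpf.

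**Figure D4:**
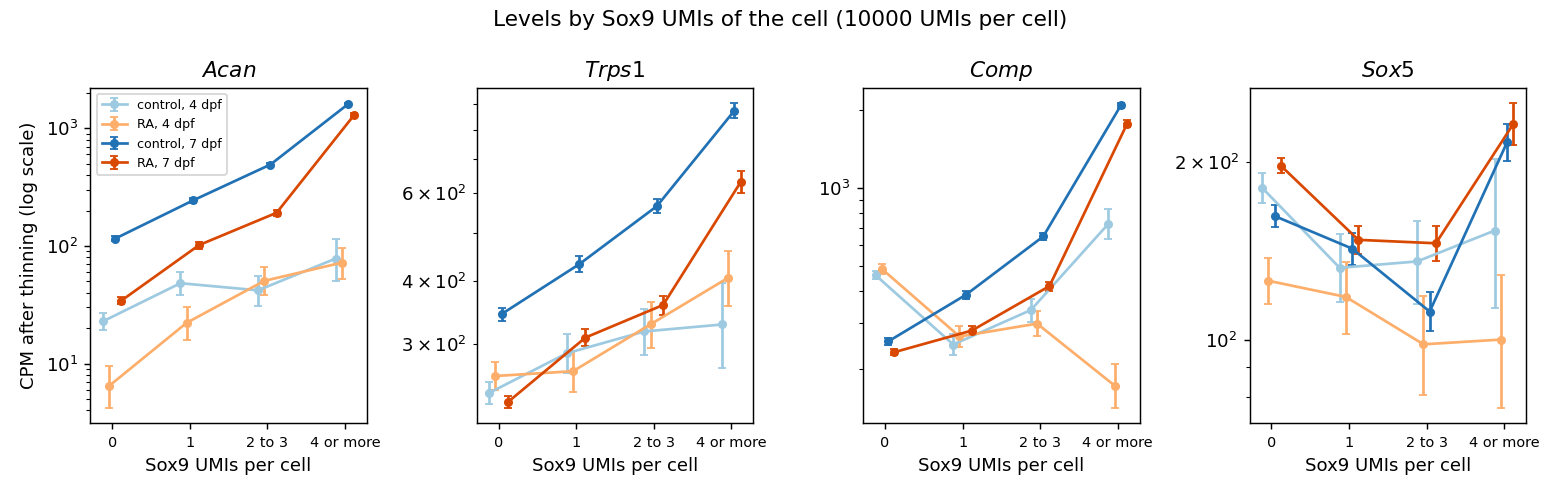
Level of *Acan*, *Trps1*, *Comp* and *Sox5* (CPM after thinning, log scale, 95% Poisson intervals) by the number of *Sox9* UMIs in the cell, in the 4 libraries. At 7 dpf *Acan* runs from 116 to 1604 CPM in control and from 34.4 to 1300 CPM in RA, whereas *Sox5* shows no steady order with *Sox9*.

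Co-detection in single cells was set against the product of the shares of both genes. This ratio cannot exceed the inverse of the larger share, so it is held lower for common genes such as *Sox9* than for rare ones. Its size is thus not comparable between pairs or libraries whose shares differ. At 7 dpf *Hapln1* and *Cnmd* were found together 4.93 times as often in control and 6.92 times as often in RA as the product of their shares gives, *Matn3* and *Cnmd* 4.598 and 5.67 times, and *Sox6* and *Hapln1* 4.10 and 5.24 times. *Sox9* and *Acan* were found together 1.23 and 1.42 times as often, and *Sox9* and *Sox5* 1.02 and 0.945 times, close to the product. *Sox5* and *Acan* likewise gave 1.01 and 0.889. Of the cells with a *Sox6* UMI, 448 of 514 in control and 200 of 400 in RA also held *Acan*. Over all mesenchymal cells the *Acan* share was itself lower in RA, 15.8% against 37.5% in control.

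The joint presence of the 3 SOX genes was less common in RA at 7 dpf. The single shares of *Sox9* and *Sox6* were lower in RA as well, and the joint share was not set against the product of the single shares. *Sox9*, *Sox5* and *Sox6* were found together in 8.93% (7.91 to 10.0) of control and 3.44% (2.89 to 4.07) of RA cells, and in 0.763% and 0.824% at 4 dpf. Of these triple-positive cells at 7 dpf, 94.6% in control and 88.6% in RA held *Acan*. *Sox5* without the other two was found in 19.9% of control and 32.4% of RA cells, of which 18.0% and 6.10% held *Acan*.

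Counting all 9 genes in each cell, the median was 3 in control at 7 dpf and 2 in each of the other libraries. All 9 were found in 132 control cells, 4.53% (3.805 to 5.35), and 91 RA cells, 2.37% (1.91 to 2.90), at 7 dpf, of which 128 and 87 were *Col2a1*-rich. No cell held all 9 at 4 dpf. At least 5 were found in 20.4% of control and 7.58% of RA cells at 7 dpf, and in 2.18% and 3.71% at 4 dpf. The difference was wide in the middle of the range: exactly 5 of the genes were found in 8.10% of control and 3.15% of RA cells, and exactly 6 in 3.74% and 0.886%. The single shares of all genes but *Sox5* were themselves lower in RA at 7 dpf. The counts per cell were not set against what the single shares give, so they are no measure of joint expression.

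**Figure D5:**
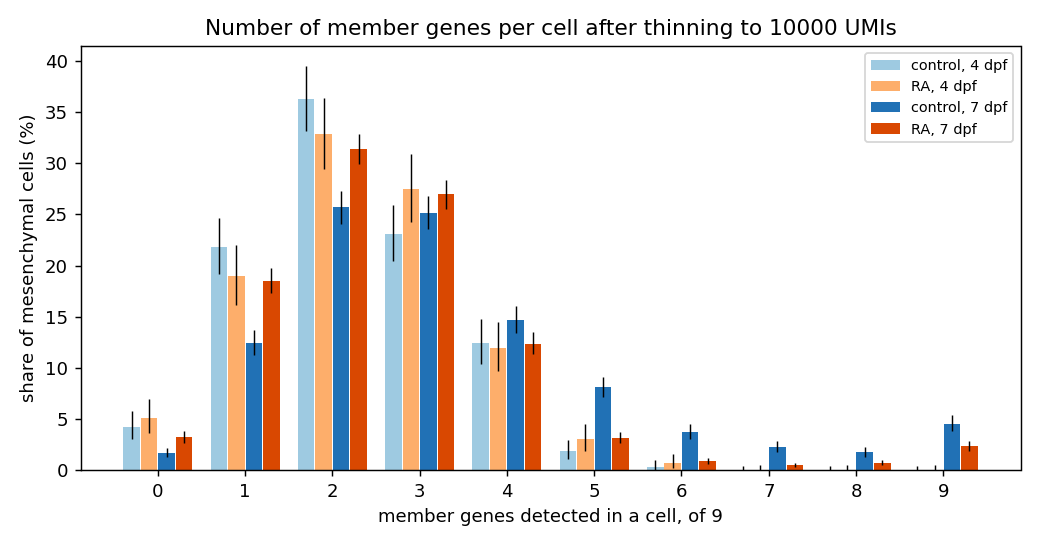
Share of mesenchymal cells (%) by the number of the 9 genes detected after thinning to 10000 UMIs, with exact 95% intervals. Cells with 5 or more of the genes make up 20.4% in control and 7.58% in RA at 7 dpf, and 2.18% and 3.71% at 4 dpf.

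The genes whose per-cell pattern was most like that of a member were taken by the mean Pearson r of log2 (UMI + 1) over the thinned cells of the 2 libraries at 7 dpf, 2913 and 3838 cells, among 12074 genes. These r values describe cells that share a library and are not tested. For *Acan* they were *Col9a2* (0.740), *Col9a3* (0.734), *Col9a1* (0.729), *Hapln1* (0.729) and *Col2a1* (0.707). *Cnmd* had *Col9a1* (0.868), *Col9a3* (0.850), *Col9a2* (0.833), *Hapln1* (0.833) and *Col2a1* (0.829), and *Comp* had *Col11a2* (0.654), *Col9a2* (0.613), *Acan* (0.610), *Col2a1* (0.606) and *Col9a1* (0.598). Type IX and XI collagens, which join type II in the cartilage fibril, thus led the 3 lists.

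The regulators had weaker neighbours. *Sox9* was most like *Acan* (0.403), *Col9a2* (0.373), *Col11a1* (0.373), *Col9a1* (0.364) and *Hapln1* (0.362), and *Trps1* most like *Col11a1* (0.407), *Acan* (0.379), *Kcnma1* (0.352), *Comp* (0.343) and *Ecrg4* (0.337). Among cells with under 10 *Col2a1* UMIs, a choice made after the values were seen, the neighbours of *Acan* were other genes, led by *Col11a1* (0.484) and *Fmod* (0.447). Those of *Comp* were led by *Fmod* (0.530), and the fifth of them was *Tnmd* (0.423). *Fmod* encodes fibromodulin, a small proteoglycan of tendon and cartilage.

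The rest of the cartilage programme was read from 6 lists, whose counts are to be read against the shares of all genes given above. In RA at 7 dpf these were 4.23% lower and 4.96% higher by 1.5-fold, and 0.906% and 1.73% by 2-fold. The share of all genes with a log2 ratio below or above 0 was not counted, so counts by sign are a description only. Of 7 cartilage collagens, 6 were at least 1.5-fold lower in RA at 7 dpf and none higher, with a median log2 ratio of -0.78 beside -0.80 for the 9 genes. *Col11a1* stood at 1131 CPM in control and 581 CPM in RA, 0.514 times, *Col9a3* at 0.601 times and *Col27a1* at 0.715 times. From 4 to 7 dpf in control all 7 were at least 2-fold higher. Over all mesenchymal cells the collagens thus followed the matrix genes of the set in both comparisons. Within the *Col2a1*-rich cells at 7 dpf they were not lower in RA. *Col11a1* stood there at 1.08 times (1.06 to 1.09), *Col9a3* at 1.30 times (1.27 to 1.33) and *Col27a1* at 1.02 times (0.987 to 1.06). In cells with under 10 *Col2a1* UMIs *Col11a1* was lower in RA, at 0.525 times (0.517 to 0.533), and *Col27a1* stood at 0.833 times. *Col9a3* stood there at 0.967 times (0.879 to 1.06). Of the rest, named after their values were seen, *Col9a2* stood at 0.621, *Col9a1* at 0.681, *Col11a2* at 1.19 and *Col10a1* at 2.46 times.

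Of 18 other chondrogenic and hypertrophic regulators tested, 11 were at least 1.5-fold lower in RA at 7 dpf and none higher, with a median log2 ratio of -0.68. *Runx2*, the regulator of hypertrophy and bone formation, stood at 230 and 136 CPM, 0.590 times. *Mef2c*, which drives hypertrophy, stood at 0.651 times and the BMP receptor gene *Bmpr1b* at 0.535 times. Of them 6 were at least 2-fold lower, namely *Runx3* (0.296 times), *Barx2* (0.459), *Sp7* (0.389), *Wwp2* (0.484), *Fgfr3* (0.433) and *Gdf5* (0.155), the joint-forming growth factor gene, at 2.73 against 0.422 CPM. *Runx2* had been 1.72 times as high in RA at 4 dpf (1.64 to 1.81), the same turn of direction as *Sox9*. Within the *Col2a1*-rich cells at 7 dpf, *Runx2* was 1.20 times as high in RA (1.14 to 1.26) and *Runx3* stood at 1.00 times. *Sp7* stood there at 0.921 times, *Mef2c* at 0.917, *Fgfr3* at 0.907 and *Wwp2* at 0.852 times. *Barx2* stood at 0.816 times (0.343 to 1.81), *Bmpr1b* at 0.673 and *Gdf5* at 0.284 times. In cells with under 10 *Col2a1* UMIs all of these genes were lower in RA. *Runx2* stood there at 0.569 times (0.555 to 0.584), *Mef2c* at 0.868, *Bmpr1b* at 0.509 and *Runx3* at 0.170 times. *Barx2* stood at 0.434, *Sp7* at 0.321, *Wwp2* at 0.586, *Fgfr3* at 0.516 and *Gdf5* at 0.322 times.

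Of 12 other cartilage matrix genes, 2 were at least 2-fold lower in RA at 7 dpf, *Snorc* (0.472 times) and *Scrg1* (0.410), and none was 2-fold higher with the pseudocount. At 1.5-fold the same 2 were lower and 3 were higher, *Matn1* (1.75 times), *Epyc* (2.11) and *Cytl1* (2.62), each at under 10 CPM and named after their values were seen. *Prelp* (1.43 times) and *Fmod* (0.932), which are also expressed outside cartilage, stood near or above 1. Within the *Col2a1*-rich cells *Snorc* stood at 1.03 times (1.01 to 1.06), *Scrg1* at 0.917 times (0.848 to 0.992), *Prelp* at 1.00 and *Fmod* at 0.710 times. The rest of the list, named after their values were seen, stood higher in RA there except *Hapln3*, at 0.773 times (0.451 to 1.29). *Matn1* stood at 3.89 times, 52.0 CPM in control and 203 CPM in RA, *Epyc* at 3.57, *Cytl1* at 2.60 and *Mia* at 2.56 times. *Ucma* stood at 1.65, *Chad* at 1.30 and *Matn4* at 1.11 times. In cells with under 10 *Col2a1* UMIs *Snorc* stood at 1.05 times (0.892 to 1.24) and *Scrg1* at 0.357 times (0.234 to 0.536). *Prelp* stood there at 1.61 and *Fmod* at 1.08 times. Of 11 other proteoglycan core genes tested, 8 had a log2 ratio below 0, 3 were at least 1.5-fold lower with the pseudocount, *Sdc3* (0.476 times), *Cspg4* (0.557) and *Gpc1* (0.621), and none was 1.5-fold higher. *Cspg4* and *Gpc1* were likewise named after their values were seen. The 3 at the highest levels, *Vcan* (0.992), *Hspg2* (1.12) and *Gpc6* (1.40), were not among the lower ones. *Vcan* encodes versican, a proteoglycan built much like aggrecan, and stood at 512 and 508 CPM.

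The 21 genes that make chondroitin sulphate, the sugar chain of aggrecan, included 16 with a log2 ratio below 0 in RA at 7 dpf. The median over all genes was itself below 0, at -0.03. None of the 21 was 2-fold higher or lower, and their median log2 ratio was -0.20. At 1.5-fold 2 were lower, the sulphate transporter gene *Slc26a2* (0.507 times, 68.1 against 34.5 CPM) and *Chsy3* (0.659 times), both named after their values were seen. *Xylt1*, which starts the chain, stood at 0.876 times and *Csgalnact1* at 0.797 times. *Ugdh*, which makes a sugar precursor also used for hyaluronan, was the one gene at least 1.5-fold higher, at 196 CPM in control and 383 CPM in RA, 1.95 times (1.92 to 1.99).

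The genes of enzymes that cleave aggrecan and COMP went the other way. All 11 of the list, which includes the inhibitor gene *Timp3*, had a log2 ratio above 0 at 7 dpf, 5 were at least 1.5-fold higher in RA and 3 at least 2-fold, with a median log2 ratio of 0.57. *Adamts5*, the main aggrecanase in mouse cartilage, stood at 116 CPM in control and 272 CPM in RA, 2.35 times (2.29 to 2.40), and *Adamts15* at 2.30 times. *Mmp3*, the stromelysin gene, stood at 68.8 and 363 CPM, 5.28 times (5.13 to 5.44). *Adamts1* stood at 1.63 times and *Htra1* at 1.48 times. At 4 dpf 6 of the 11 had a log2 ratio above 0 and 5 below, with a median of 0.04 beside 0.03 over all genes. By at least 2-fold, 1 of the 11 was higher in RA at 4 dpf and 1 lower, where 0.699% and 0.862% of all genes were. *Adamts5* and *Adamts15* stood lower in RA at that time, at 0.528 and 0.487 times. Most *Adamts5* and *Mmp3* UMIs at 7 dpf lay outside the *Col2a1*-rich cells, where the ratios were 2.24 (2.19 to 2.30) and 4.97 (4.82 to 5.11). Within the *Col2a1*-rich cells *Adamts5* stood at 1.78 times (1.44 to 2.21), *Adamts15* at 4.91 (2.68 to 9.52) and *Adamts1* at 1.53 times. *Mmp3* had 5 UMIs there in control and 148 in RA. *Htra1* stood at 0.959 times (0.866 to 1.06) and *Timp3* at 0.803 times (0.754 to 0.854).

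Cells near the *Col1a1* threshold were few. At 7 dpf 18 control and 52 RA cells held 20 to 24 *Col1a1* UMIs, and 21 and 55 cells just outside held 15 to 19. *Sox9* stood at 7.76 and 33.6 CPM in the cells just inside and at 50.2 and 32.8 CPM in those just outside. *Sox5* stood at 434 and 452 CPM just inside and at 332 and 461 CPM just outside.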

How the data were processed

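The deposited files hold unscaled UMI counts, 1 value for each gene in each cell barcode. Per the labels and the study's methods, the authors made them from Chromium 3′ libraries with Cell Ranger 7.0.1 on mm10, loading 10000 cells per library. Whether intronic reads were counted is not given in the sources used here. Total UMIs per library ran from 130168130 to 182259646 over 5896 to 10306 barcodes. Cells outside the study's limits on UMIs, features and mitochondrial share were removed. Of the mesenchymal rule's barcodes at 4 dpf, 455 of 1549 in control and 323 of 1204 in RA held over 50000 UMIs and were left out. At 7 dpf these were 225 of 3929 and 166 of 4631. All limits together kept 61.4% in control and 62.7% in RA at 4 dpf, and 77.7% and 87.0% at 7 dpf. The comparisons over time thus set libraries cut to different degrees against each other. Doublets were kept in the reported values and called with Scrublet in scanpy 1.11.5 for an alternative.

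UMIs of each gene were summed over the mesenchymal cells of a library and divided by their total (CPM). Levels have exact Poisson intervals, shares exact Clopper-Pearson intervals, and ratios an exact interval conditional on the summed count. Log2 ratios used a pseudocount of 1 CPM, over genes with at least 50 UMIs in both libraries together. Macrophages (*Ptprc* at least 1, *Cd68* at least 5) and endothelial cells (*Pecam1* and *Cdh5* at least 3, no *Ptprc*), both under the mesenchymal thresholds, served as background for free RNA. No test between conditions was made. The calculation was tested on simulated data. Python 3.11.15, numpy 2.4.6, scipy 1.17.1 and pandas 2.3.3 were used. Of the gene IDs, 32158 of 32285 matched GENCODE M21. A longer form of the second promoter motif, ACAATG, was tried first and had no match in the promoters of the set.

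Named genes were the 9 members, the genes of the rule and, from each list, the 3 with the highest summed CPM and those past 2-fold between RA and control at 7 dpf. For *Sox9*, *Acan*, *Comp*, *Cnmd* and *Trps1* the 5 genes most like them were named too. *Tnmd* was chosen after its values were seen. The members and lists were chosen with earlier results of these data known.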

Additional observations from a re-analysis of the deposited data

Results flagged for a closer look

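For 5 of the 9 genes the ratio of RA to control lay on opposite sides of 1 at the 2 times, with counting intervals that excluded 1 at both. This was looked for in the 9 genes only. The share of all genes that meet the same rule was not counted, so the count is a description. *Sox9* stood at 1.49 times the control level at 4 dpf and 0.622 times at 7 dpf. *Sox6* stood at 1.18 and 0.562 times, *Trps1* at 1.11 and 0.609 times, and *Matn3* at 1.40 and 0.509 times in the same order. *Sox5* went the opposite way, at 0.670 times at 4 dpf and 1.15 times at 7 dpf. With 1 library for each condition and time, none of these differences between the times was tested.

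Over the alternative settings the ratios at 4 dpf ran from 1.41 to 1.49 for *Sox9*, 1.08 to 1.32 for *Sox6*, 1.04 to 1.11 for *Trps1*, 1.12 to 1.63 for *Matn3* and 0.642 to 0.741 for *Sox5*. The ratio of *Sox5* at 7 dpf ran from 1.05 to 1.18. With the cells over 50000 UMIs counted as well, an alternative chosen after seeing the data, the ratios at 4 dpf were 1.43 for *Sox9*, 1.12 for *Sox6* with an interval that included 1 (0.999 to 1.25), 1.04 for *Trps1*, 1.64 for *Matn3* and 0.748 for *Sox5*.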

How the results depend on the processing

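No paired analysis was possible because each condition has 1 library. For the same reason no replicate could be left out. Under the 12 alternatives tried for levels, 8 of the 9 genes stood below 1 in RA at 7 dpf each time, and no ratio whose interval excluded 1 changed direction under them. The ratio of *Acan* at 7 dpf, 0.388, was 0.380 with the mesenchymal rule applied after thinning, 0.397 with TMM scaling, 0.398 with median of ratios scaling, 0.401 with a pseudocount of 10 CPM and 0.437 with 4 and 7 dpf summed. The ratio of the *Sox9* shares, 0.775, was 0.691 after thinning to 4000 UMIs and 0.644 when at least 2 UMIs were asked for. *Acan* in *Sox9*-positive cells, 0.495, was 0.591 when at least 2 *Sox9* UMIs were asked for. The ratio of cells with at least 5 of the genes ran from 0.343 to 0.395. The 453 genes past 2-fold at 7 dpf became 117 with a pseudocount of 10 CPM and 1582 at 1.5-fold. TMM and median of ratios scaling moved all log2 ratios by at most 0.09.

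Of the other levels, 30 of 96 at 7 dpf and 9 of 99 at 4 dpf left their counting interval under an alternative, as did 10 of 72 and 3 of 81 shares and 8 of 56 levels in *Sox9*-positive cells. Weighting the RA cells at 7 dpf to the *Col2a1* classes of control, an alternative chosen after seeing the data, gave 0.766 for *Acan*, and turned *Sox6* to 1.00, *Hapln1* to 1.18, *Matn3* to 1.08 and *Cnmd* to 1.38. By construction this removes the difference in *Col2a1* classes, and for *Sox6*, *Hapln1* and *Matn3* it sums classes that differed in direction. Counting the rule cells over 50000 UMIs, also chosen after seeing the data, gave 0.382 for *Acan* at 7 dpf and turned no ratio of RA to control to the other side of 1. It turned *Sox5* from 4 to 7 dpf in control from 0.908 to 1.08 and *Comp* went from 1.99 to 4.42 in control and from 1.26 to 2.55 in RA. Low counts limit *Hapln1*, *Matn3* and *Cnmd* at 4 dpf, with 24 to 130 UMIs per library.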

Other observations

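Outside the mesenchymal cells, *Trps1* was found in 88.0% to 93.8% of macrophages of the 4 libraries, at 422 to 564 CPM. *Sox6* in endothelial cells stood at 7.86 and 4.42 CPM at 4 dpf (control and RA) and at 7.31 and 10.9 CPM at 7 dpf, against 0.210 to 4.37 CPM in macrophages. *Cnmd* stood at 5.04, 5.16, 7.94 and 9.42 CPM in endothelial cells in the same order, against 0.253 to 3.09 CPM in macrophages.

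Barcodes that met the mesenchymal rule but held over 50000 UMIs were not among the cells above. At 4 dpf, where there were 455 in control and 323 in RA, their *Comp* stood at 36.0 and 28.5 CPM, against 337 and 305.5 CPM in the kept cells, while *Sox9* stood at 84.1 and 117 CPM. At 7 dpf there were 225 and 166 such barcodes, and their *Acan* stood at 1175 and 583 CPM, *Hapln1* at 972 and 560 CPM and *Sox9* at 240 and 159 CPM.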
